A study of Homo sapiens with 2 samples.

Results

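The genes described here encode the human translation initiation factors (eIF1 to eIF6), the elongation factors eEF1 and eEF2, and the enzymes named after the elongation factors that they methylate or phosphorylate. They were taken from a gene expression table by name: symbols beginning EIF with a digit from 1 to 6, or EEF with 1 or 2, without the EIF2AK kinases and without pseudogenes, and with a protein-coding transcript. This gave 63 genes of 60612 in the table. Their mean level in the 2 libraries was at least 1 FPKM (fragments scaled to transcript length and library size) for 59 of them, and 11830 genes of the whole table passed the same filter. The naming rule uses no measured value. The cells were MDA-MB-231, an established human line of triple-negative breast cancer, which lacks estrogen receptor, progesterone receptor and HER2 amplification. One culture received 24 µM D16 for 48 h, a compound that the labels call a chalcone and identify only by that code, and the other was kept in common medium. RNA-seq was done on 1 library of each, and the labels do not say whether the control medium held the vehicle of D16.

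Translation begins when eIF2 brings the initiator tRNA to the small ribosomal subunit, while eIF1, eIF1A and eIF3 keep that subunit open for scanning. The eIF4 factors bind the cap and unwind the message, and eIF5 and eIF5B let the large subunit join once the start codon is found. During elongation eEF1A delivers each aminoacyl-tRNA, the eEF1B complex recharges eEF1A with GTP, and eEF2 moves the ribosome along. Many messages of the elongation apparatus begin with a C followed by a run of pyrimidines, the terminal oligopyrimidine or TOP element, through which growth signals and the binding protein LARP1 control their translation and stability.

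The D16 library held 73303902 estimated counts and the control library 72108404, and the FPKM values summed to 296616 in the D16 library and 336554 in the control library. VIM and CD44, markers of this mesenchymal-type line, stood at 259 and 25.6 FPKM in the D16 library, against 502 and 25.6 FPKM in the control library. PGR was listed at 0 in both libraries, and ESR1 was at 0.00935 FPKM in the D16 library and 0.0192 FPKM in the control library. With 1 library per group there was no replicate check and no test. The 95% intervals given below are exact counting intervals of the FPKM ratio, D16 over control. They cover counting error only, since reads are not independent molecules, and they say nothing about how 2 untreated cultures would differ. Whether fewer cells or less RNA per cell lay behind a lower level cannot be told apart in bulk RNA.

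The sequences that matter most for reading these values are at EEF1G, because a second gene model on the same strand contains nearly all of its message. EEF1G lies at chr11:62559596-62574086 on the minus strand by the table's own coordinates, and the overlapping model AP002990 at chr11:62559603-62591531. In GENCODE release 29 (GRCh38) the EEF1G transcript examined has 10 exons and 1523 bases. Of these exons, 9 overlap exons of the shorter AP002990.1 transcript, and the overlap of 1378 bases is 90.5% of the EEF1G transcript. What separates the pair is the junction into the second EEF1G exon. The junctions are shown with the shared exon in capitals, 15 bases on each side. The upstream bases lie at chr11:62573831-62573845 for EEF1G and at chr11:62574677-62574691 for AP002990.1, and the shared exon bases at chr11:62572728-62572742, all on the minus strand of GRCh38.
EEF1G: accatggcggctgggACCCTGTACACGTAT
AP002990: ccgttcttaaactggACCCTGTACACGTAT
Of all 150-base windows of that EEF1G transcript, 89.6% also occur in AP002990.1 transcripts, so most reads of that length could be assigned to either model.

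EEF1G, the scaffold subunit of the eEF1B exchange complex, stood at 50.6 FPKM in the D16 library and 448 FPKM in the control library. The ratio was 0.113 (95% counting interval 0.109 to 0.117), or 8.86-fold lower in D16, the widest difference of any measured member. AP002990 ran the other way, with 162 FPKM in the D16 library against 10.8 FPKM in the control library, 15.0-fold higher (14.2 to 15.9). In counts, EEF1G had 11733 in the D16 library and 99946 in the control library, while AP002990 had 73796 in the D16 library and 4726 in the control library. EEF1G therefore held 13.7% of the counts of the pair in the D16 library and 95.5% in the control library. Summed over both models the locus had 85529 counts in the D16 library and 104672 in the control library. After the factor of 0.962 that ties count ratios to FPKM ratios, the ratio of the sums was 0.786 (0.772 to 0.800), or 1.27-fold lower in D16. The 8.86-fold difference of EEF1G alone thus stood beside a 1.27-fold difference of the summed counts. That sum takes no account of model length, and counts per FPKM differ between the models. A sum of their FPKM, 50.6 and 162 in D16 against 448 and 10.8 in control, would give a lower ratio. The 1.27-fold difference therefore holds for summed counts only. The summed counts also hold any reads from the 576 bases of the shorter AP002990.1 transcript that lie outside the EEF1G transcript. They hold any from such parts of the longer AP002990.1 transcript too, and those bases were not counted. The sources used here do not say how the authors' counting assigned reads that fit both models. The authors' deposited table of top genes lists EEF1G among its 100 names headed Down and AP002990 among its 100 names headed Up, and EEF1G is the only member on either list.

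**Figure D1:**
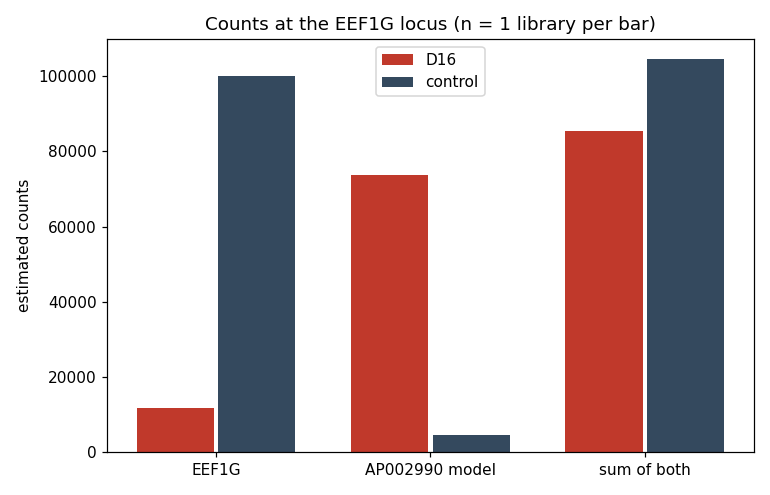
Estimated counts of EEF1G, of the overlapping same-strand model AP002990 and of their sum in the D16 library (left bar of each pair) and the control library (right bar), 1 library per bar. EEF1G is low and AP002990 high in D16, while the sums are 85529 counts in D16 and 104672 in control.

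**Figure D2:**
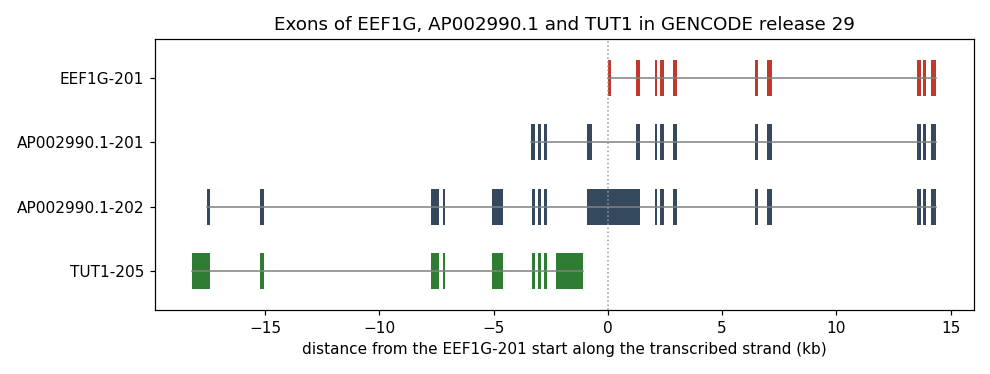
Exons (boxes) and introns (lines) of a transcript of EEF1G, the shorter and the longer AP002990.1 transcript and a transcript of TUT1 in GENCODE release 29, against the distance in kb from the EEF1G start along the transcribed strand. The AP002990.1 transcripts begin upstream in TUT1 and run through EEF1G, so 9 of the 10 EEF1G exons overlap exons of the shorter of them.

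The upstream end of AP002990.1 lies in TUT1, which encodes a terminal uridylyltransferase: 339 of the 1954 bases of the shorter AP002990.1 transcript are TUT1 exon bases. TUT1 itself stood at 0.932 FPKM in the D16 library and 1.85 FPKM in the control library, a ratio of 0.504 (0.375 to 0.675). TUT1 exons are also exons of AP002990.1, so TUT1 reads are open to the same exchange and this value does not measure TUT1 apart from that model. Only 2 bases of the EEF1G transcript lie outside every AP002990.1 transcript, because the longer has a long exon across the first EEF1G exon. Whether transcripts that join TUT1 to EEF1G were more frequent after D16 was not tested, since junction counts were not used here.

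Across the factors as a whole, most members differed little between the libraries. Differences are given as log2((D16 FPKM + 1) / (control FPKM + 1)), which understates the difference of low genes, and a member was counted when at least 1.5-fold apart on that scale. Of the 59 measured members, 7 were at least 1.5-fold higher in the D16 library (11.9%), while 13.2% of all measured genes were. In the other direction 1 member, EEF1G, was at least 1.5-fold lower (1.69%), while 11.0% of all measured genes were. At 2-fold, 2 members were higher (EIF5 and EIF3J), against a background of 3.63%, and 1 was lower (EEF1G), against a background of 3.97%. The share of members on the higher side was thus near that of all genes. The other 51 members, 86.4%, lay within 1.5-fold, as did 75.8% of all measured genes and 76.4% of those with a protein-coding transcript. The median log2 difference was 0.13 for members and 0.08 for all measured genes, and above a mean of 5 FPKM it was 0.13 for members and 0.15 for all. The spread was narrower in the members, with quartiles at -0.02 and 0.34, than in all genes, with quartiles at -0.26 and 0.38.

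**Figure D3:**
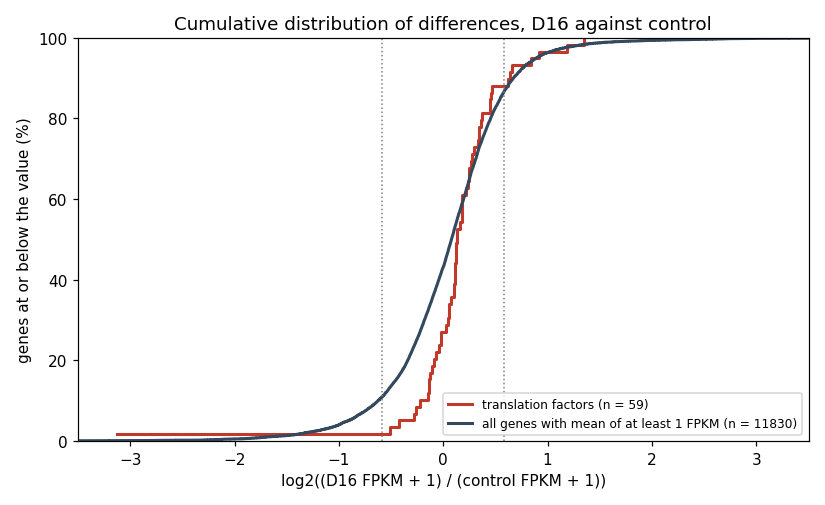
Cumulative percentage of genes at or below each log2((D16 FPKM + 1) / (control FPKM + 1)), for the 59 measured translation factors and for all 11830 measured genes, with dotted lines at 1.5-fold. The curve of the factors is steeper near 0, and its left tail holds EEF1G alone beyond 1.5-fold, while 11.0% of all genes lie there.

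The direction of small differences depended on how the libraries were scaled. Rescaling both libraries to the same sum of FPKM shifted the median of all genes by 0.15 on the log2 scale, and centring on the median gene above a mean of 5 FPKM shifted it by -0.15. Under the deposited scale, these 2 scalings and TMM scaling of the counts, 28 members were higher in D16 in all, 8 were lower in all (EEF1A1, EEF1A2, EEF1G, EEF2K, EIF2D, EIF3L, EEF1AKMT1 and EEF1AKMT3), and 23 changed sides. The split of higher against lower members at 1.5-fold was 7 to 1 as deposited, 11 to 1 with equal sums, 4 to 2 after centring and 7 to 2 with TMM. Of all measured genes, 21.4% were higher and 7.93% lower with equal sums, and 8.31% higher and 15.6% lower after centring. With TMM 15.44% of them were higher and 13.96% lower. The split of all genes thus moved with the scaling too. EIF5, EIF3J, EIF1B and EEF1AKMT4 were at least 1.5-fold higher under every one of these scalings. Of the 8 members past 1.5-fold as deposited, EIF3J overlaps SPG11 and EIF2A overlaps SERP1 on the opposite strand, as EIF2D overlaps RASSF5 and EEF2KMT overlaps ALG1 among members close to that limit. The libraries mark strand per the labels, but the strand setting of the counting is not stated, so the share of such partners in their values was not tested.

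**Figure D4:**
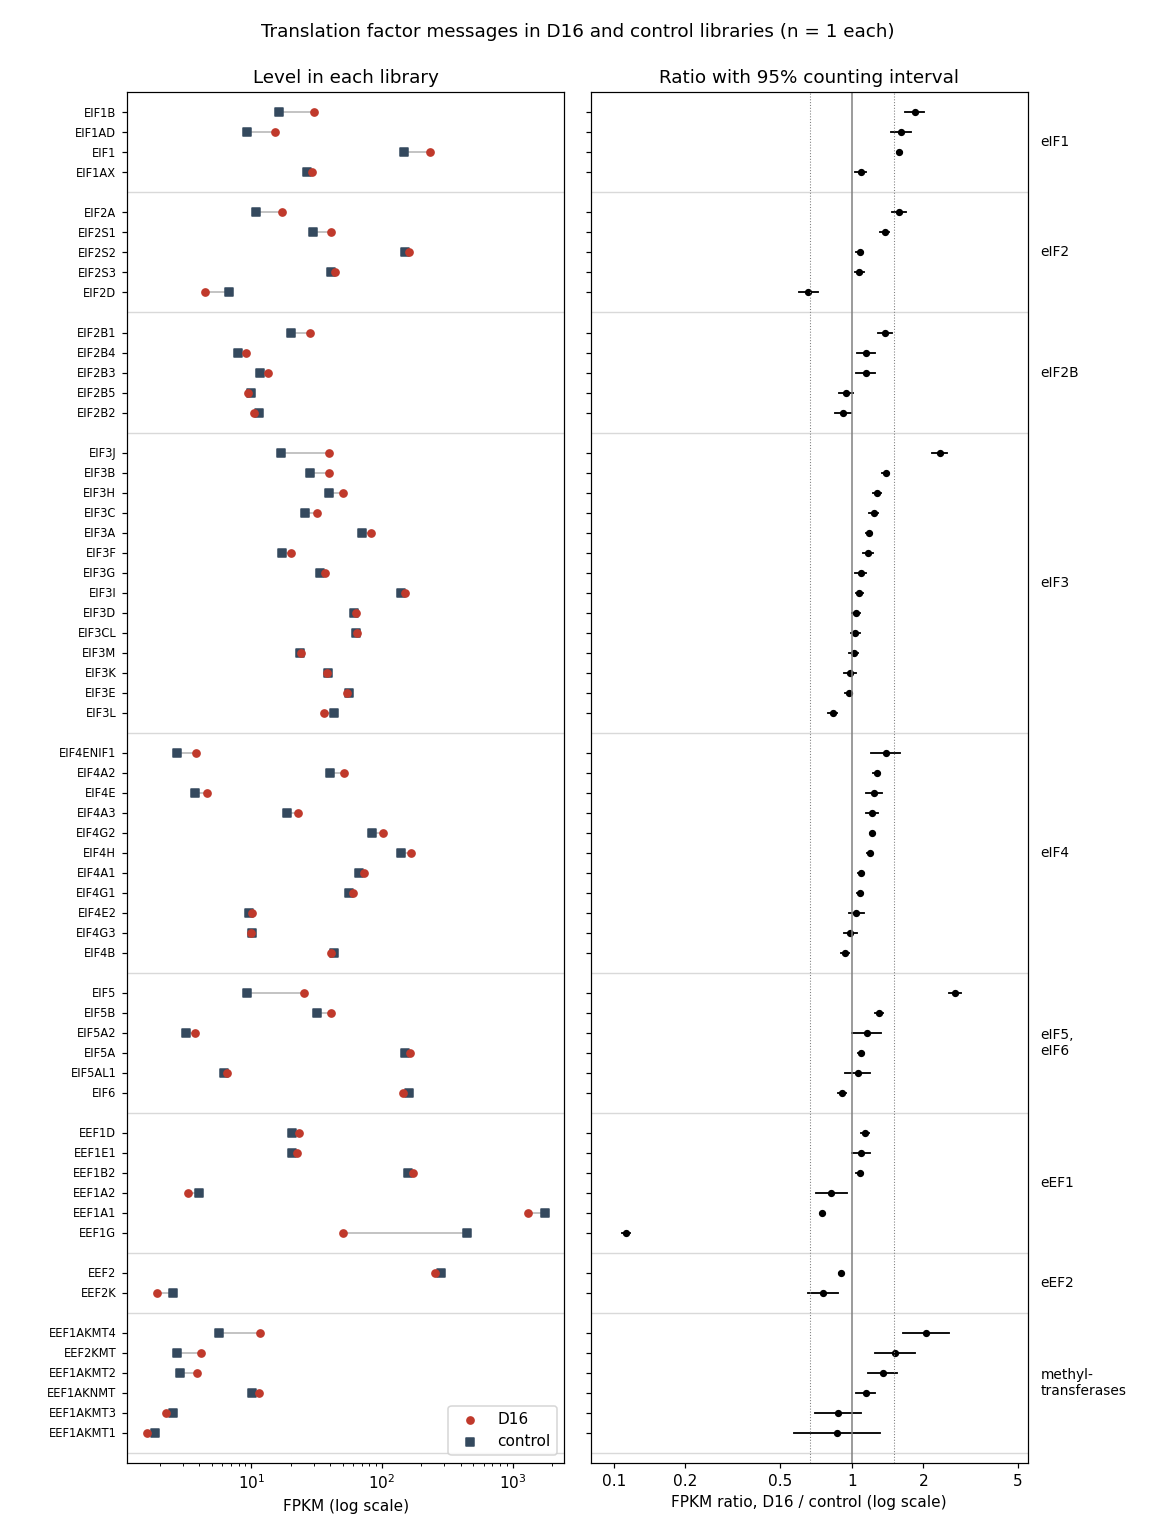
Left, FPKM (log scale) of each of the 59 measured members in the D16 library (circles) and the control library (squares); right, the ratio of D16 to control (log scale) with its 95% counting interval and dotted lines at 1.5-fold, members grouped by factor. EIF5, EIF3J, EEF1AKMT4 and EIF1B stand to the right and EEF1G alone far to the left.

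The eIF1 group had the highest median difference of the groups, 0.65 on the log2 scale, and all of its 4 measured members were above 0. The medians of the others were 0.11 for eIF2 and its alternatives, 0.18 for eIF2B, 0.12 for eIF3, 0.25 for eIF4, 0.15 for eIF5 and eIF6, -0.06 for eEF1, -0.21 for eEF2 and 0.25 for the methyltransferases. EIF1, which guards start codon choice during scanning, stood at 233 FPKM in the D16 library and 147 FPKM in the control library, a ratio of 1.59 (1.55 to 1.62). EIF1B, its close paralog, stood at 29.9 FPKM in the D16 library against 16.3 FPKM in the control library, a ratio of 1.84 (1.67 to 2.02). EIF1AD, a protein with an eIF1A-like domain, was at 15.0 FPKM in the D16 library and 9.32 FPKM in the control library, a ratio of 1.61 (1.46 to 1.78). These 3 were higher in the D16 library at both low and high abundance, and EIF1 and EIF1B share no 150-base window, so their reads could be kept apart. EIF1AX, the X-linked eIF1A gene, was the exception of the group, with 29.3 FPKM in the D16 library against 26.9 FPKM in the control library, and its direction changed with the scaling. The Y-linked EIF1AY was under 1 FPKM.

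EIF5, the GTPase-activating protein of eIF2, had the highest ratio of all members. It stood at 25.2 FPKM in the D16 library and 9.25 FPKM in the control library, a ratio of 2.72 (2.57 to 2.88). The other factors that bear the number 5 or 6 have separate roles and were within 1.5-fold. EIF5A, the hypusine-bearing factor that helps ribosomes through difficult peptide bonds, stood at 164 FPKM in the D16 library and 149 FPKM in the control library, a ratio of 1.10. EIF6, which keeps free large subunits from joining too early, was at 146 FPKM in the D16 library against 160 FPKM in the control library, a ratio of 0.912. The direction of both changed with the scaling. EIF5B, the GTPase of subunit joining, was at 41.0 FPKM in the D16 library and 31.5 FPKM in the control library. EIF5A2 and EIF5AL1, relatives of EIF5A, had ratios of 1.16 and 1.06.

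The subunits of eIF2 were uneven. EIF2S1, the alpha subunit whose phosphorylation shuts down general initiation, stood at 40.7 FPKM in the D16 library and 29.5 FPKM in the control library, a ratio of 1.38 (1.32 to 1.44). EIF2S2, the beta subunit and the most abundant of the group, was at 161 FPKM in the D16 library against 149 FPKM in the control library, a ratio of 1.08. EIF2S3, the gamma subunit that binds GTP and the initiator tRNA, also had a ratio of 1.08, with 43.8 FPKM in the D16 library and 40.7 FPKM in the control library. The subunits stand in a fixed complex, and their messages did not keep 1 ratio here: the interval of EIF2S1 lay above those of EIF2S2 (1.05 to 1.11) and EIF2S3 (1.03 to 1.13). EIF2S3B, a copy of the gamma subunit gene, was under 1 FPKM.

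The alternatives to eIF2 lay on opposite sides. EIF2A, a separate protein that can bring initiator tRNA without eIF2, stood at 17.1 FPKM in the D16 library and 10.8 FPKM in the control library, a ratio of 1.58 (1.48 to 1.70). EIF2D, which binds tRNA on the small subunit during recycling and unusual initiation, stood at 4.40 FPKM in the D16 library against 6.70 FPKM in the control library, a ratio of 0.657 (0.599 to 0.720). EIF2D was just inside 1.5-fold on the log2 scale with 1 FPKM added, at -0.51, and just past it with centred or TMM-scaled values. For eIF2B, which recharges eIF2 with GTP, EIF2B1 had 28.0 FPKM in the D16 library and 20.3 FPKM in the control library, a ratio of 1.38 (1.29 to 1.47). EIF2B2, at the other end, had 10.4 FPKM in the D16 library and 11.3 FPKM in the control library, a ratio of 0.920. The 3 remaining subunits had ratios between 0.945 and 1.15.

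All 14 eIF3 genes were measured, with a median log2 difference of 0.12, and 1 of them stood apart. EIF3J, the loosely held subunit that sits in the decoding center and helps in recycling, was at 39.6 FPKM in the D16 library against 16.9 FPKM in the control library. Its ratio was 2.34 (2.18 to 2.51). EIF3A, the scaffold of the complex, was at 82.7 FPKM in the D16 library and 70.1 FPKM in the control library, a ratio of 1.18 (1.15 to 1.21). EIF3I, the most abundant subunit message, was at 149 FPKM in the D16 library and 139 FPKM in the control library, a ratio of 1.08. EIF3L, the lowest by ratio, was at 36.0 FPKM in the D16 library and 43.2 FPKM in the control library, a ratio of 0.832 (0.794 to 0.871). The other 10 had ratios between 0.971 and 1.39. Of the 150-base windows of EIF3CL, 95.3% also occur in EIF3C, so reads of the 2 copies could be exchanged, and summed over both copies the ratio was 1.13 (1.10 to 1.17).

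No measured member of the eIF4 group was 1.5-fold apart, and its 11 ratios ran between 0.937 and 1.39. EIF4E, which binds the cap, was at 4.59 FPKM in the D16 library and 3.70 FPKM in the control library, a ratio of 1.24 (1.14 to 1.34). EIF4G1, the scaffold that joins cap, helicase and poly(A) binding protein, was at 60.3 FPKM in the D16 library against 55.5 FPKM in the control library, a ratio of 1.09. EIF4H, a helper of the helicase and the most abundant of the group, was at 166 FPKM in the D16 library and 140 FPKM in the control library, a ratio of 1.19 (1.16 to 1.22). The ends of the range were EIF4ENIF1, which carries eIF4E into the nucleus and into stored messages, and EIF4B, another helicase helper. EIF4ENIF1 had 3.76 FPKM in the D16 library against 2.71 FPKM in the control library, and EIF4B had 40.5 FPKM in the D16 library against 43.3 FPKM in the control library. EIF4E3 was under 1 FPKM, with 0.221 in the D16 library and 0.615 in the control library, and EIF4E1B was listed at 0 in both.

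The helicase genes showed a second locus with an overlapping readthrough model. EIF4A2 was at 51.0 FPKM in the D16 library and 40.0 FPKM in the control library, a ratio of 1.27 (1.23 to 1.32). EIF4A1 was at 73.2 FPKM in the D16 library and 66.9 FPKM in the control library, a ratio of 1.10 (1.06 to 1.13). EIF4A1 and EIF4A2 share no 150-base window, but 82.0% of the windows of an EIF4A1 transcript also occur in SENP3-EIF4A1, a model that joins the neighbouring SUMO protease gene SENP3 to EIF4A1. SENP3-EIF4A1 was at 58.3 FPKM in the D16 library against 30.1 FPKM in the control library, a ratio of 1.94 (1.84 to 2.04). SENP3 alone was at 7.29 FPKM in the D16 library against 22.6 FPKM in the control library, a ratio of 0.322 (0.293 to 0.354). EIF4A1 and SENP3-EIF4A1 summed to 51488 counts in the D16 library and 38325 in the control library, a ratio of 1.29 (1.26 to 1.33). With SENP3 added the ratio was 1.14 (1.12 to 1.17). EIF4A1 summed with SENP3-EIF4A1, AC016876 and SNORA67, its expressed overlapping models on the same strand, had a ratio of 1.26 (1.22 to 1.29). As at EEF1G, a readthrough model was higher in D16 and the upstream model lower, though TUT1 was not measured apart from AP002990. The members themselves differed, with ratios of 0.113 for EEF1G and 1.10 for EIF4A1. The split of reads between these models was not tested.

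EEF1A1, which delivers aminoacyl-tRNA, was the most abundant member in both libraries, at 1309 FPKM in the D16 library and 1753 FPKM in the control library. The ratio was 0.747 (0.742 to 0.752), and it was below 1 under all 4 scalings. Its 39 annotated pseudogenes held 12.5% of the counts of the family in the D16 library and 11.8% in the control library, and the ratio of the summed family was 0.753 (0.748 to 0.758). EEF1A2, the form of muscle and nerve, was far lower, at 3.27 FPKM in the D16 library and 3.98 FPKM in the control library. In the exchange complex, EEF1B2, a catalytic subunit, had 172 FPKM in the D16 library and 159 FPKM in the control library, a ratio of 1.08 (1.04 to 1.12). EEF1D, the other exchange subunit, had 23.3 FPKM in the D16 library and 20.5 FPKM in the control library, a ratio of 1.14 (1.09 to 1.19). The EEF1G locus, with counts summed over both models, was at 0.786 (0.772 to 0.800). That sum takes no account of model length, so its place among the ratios of single models depends on how the sum is made. EEF1E1, a partner of the aminoacyl-tRNA synthetases, had a ratio of 1.09.

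EEF2, the translocase, was at 254 FPKM in the D16 library and 281 FPKM in the control library, a ratio of 0.902 (0.886 to 0.919) that turned above 1 with equal sums of FPKM. EEF2K, the kinase that switches eEF2 off, was at 1.91 FPKM in the D16 library against 2.52 FPKM in the control library, a ratio of 0.756 (0.652 to 0.873).

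Among the methyltransferases, EEF1AKMT4, which methylates a lysine of eEF1A, was at 11.6 FPKM in the D16 library and 5.67 FPKM in the control library. The ratio was 2.05 (1.64 to 2.57), from 995 counts in the D16 library and 467 in the control library, the fewest counts of any member past 1.5-fold. The readthrough model EEF1AKMT4-ECE2, which begins in the same place, was listed at 0 in both libraries. EEF1AKNMT, which methylates the N-terminus of eEF1A, was at 11.5 FPKM in the D16 library and 10.1 FPKM in the control library, a ratio of 1.14 (1.04 to 1.26). EEF2KMT, the lysine methyltransferase of eEF2, had 4.13 FPKM in the D16 library and 2.72 FPKM in the control library. Its ratio of 1.52 (1.26 to 1.84) was within 1.5-fold on the log2 scale with 1 FPKM added, at 0.47. EEF1AKMT1 and EEF1AKMT3 had ratios of 0.869 and 0.875, with intervals that include 1.

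Start sequences were read from RefSeq promoters (GRCh38.p14), which held 46 of the 59 measured members. Each window ran from 250 bases before to 50 after an annotated start. Where a gene had more than 1 start, a match at any of them counted, and the start with the longest run is shown. Genes with more starts had more chances of a match, and the shares below were not adjusted for this. A start of C and at least 4 further pyrimidines was found in 12 of the 46, or 26.1%, against 7.60% of expressed genes (a mean of 1 FPKM or more) and 5.14% of all genes of the promoter table. The following runs of 30 bases, 15 before the start and 15 from it, show the elongation factors with such a start, EIF3F and EIF4B as initiation factors with a long and a short run, the run in capitals, and EEF1G, which has none at its annotated start. They lie at chr6:73521018-73521047 (minus), chr19:3985449-3985478 (minus), chr2:206159880-206159909 (plus), chr11:7987322-7987351 (plus), chr12:53006441-53006470 (plus) and chr11:62573877-62573906 (minus), in the order shown. The EEF1G bases shown lie downstream of the first base of the GENCODE transcript described above, at chr11:62573973. Start sequences were read at RefSeq starts only.
EEF1A1: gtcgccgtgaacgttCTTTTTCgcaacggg
EEF2: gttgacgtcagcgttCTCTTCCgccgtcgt
EEF1B2: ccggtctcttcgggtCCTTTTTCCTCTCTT
EIF3F: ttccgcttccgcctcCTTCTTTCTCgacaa
EIF4B: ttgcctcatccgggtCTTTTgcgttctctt
EEF1G: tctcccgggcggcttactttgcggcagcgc
The 12 members with such a start were EEF1A1, EEF1B2, EEF2, EIF2A, EIF2D, EIF2S3, EIF3D, EIF3F, EIF3K, EIF3M, EIF4A2 and EIF4B. Their median log2 difference was 0.04, against 0.21 for the other 34. At 1.5-fold, where 13.2% of all measured genes were higher in D16, 1 of the 12 (EIF2A) and 6 of the other 34 were. Their median level was 42.2 FPKM in the D16 library and 40.4 FPKM in the control library, and that of the other 34 was 26.6 FPKM in the D16 library and 17.8 FPKM in the control library. Over all measured genes with a RefSeq promoter the order was the same, with a median of 0.01 for the 656 with such a start and 0.10 for the other 7978. LARP1, the protein that binds these starts, was at 11.9 FPKM in the D16 library and 31.1 FPKM in the control library, a ratio of 0.382 (0.364 to 0.401). Its part in these levels was not tested.

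**Figure D5:**
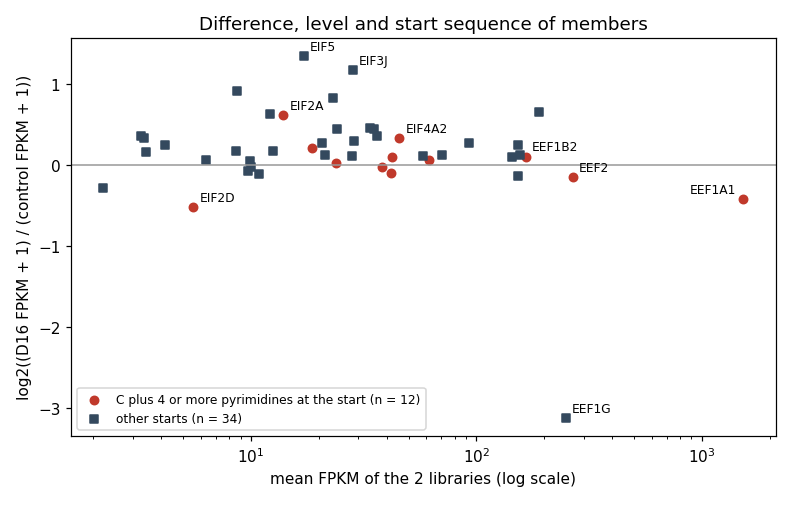
Log2((D16 FPKM + 1) / (control FPKM + 1)) against the mean FPKM of both libraries (log scale) for the 46 members with a RefSeq promoter. Circles are the 12 with a C and at least 4 more pyrimidines at an annotated start, and squares the 34 with other starts. The circles center near 0 with a median of 0.04, and EIF5 and EIF3J, the highest, are squares.

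Motif letters were searched on both strands of the promoters of the same 46 members, and a match in any window of a gene counted. The antioxidant response element TGACNNNGC was present in 12 (26.1%), against 19.5% of expressed genes and 16.1% of all genes. The median log2 difference was 0.149 for members with this element and 0.153 for those without, so members with it were no higher as a set. It was present in 4 of the 7 members that were at least 1.5-fold higher. A match of each of the 2 highest is shown with the motif in capitals, as read on the plus strand at chr14:103334102-103334130 and chr15:44537061-44537089.
EIF5: aagatgcgatTGACGTCGCaagcgaacca
EIF3J: tcggctcggcGCACAGTCAgccacggtcc
They lie 125 bases upstream of an annotated start of EIF5 and 76 bases upstream of that of EIF3J, where the letters are on the minus strand. EIF5 had a second match at chr14:103334650-103334678, 228 bases upstream of a different annotated start that lies further downstream. The second match is thus not upstream of the start used for the first. The E-box CACGTG was present in 12 members (26.1%), against 12.8% of expressed genes and 8.77% of all genes, and in 2 of the 7 higher members. The letters TGATGNAAN are a form of the ATF4 amino acid response element. They were found for 0 of the 46 members, against 2.55% of expressed genes and 4.45% of all genes. A match is only a run of letters, and the absence of letters from these windows says nothing of binding elsewhere.

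The genes that control these factors were described from lists of 59 genes, 56 of them measured. At 1.5-fold 5 were higher in D16 (8.93%) and 2 lower (3.57%), against 13.2% and 11.0% of all measured genes, so neither share was above the background. At 2-fold 2 were higher (3.57%) and 1 lower (1.79%), against 3.63% and 3.97% of all measured genes. The median log2 difference of the 56 was 0.25. The largest difference was that of PPP1R15A, the stress-induced phosphatase subunit that removes phosphate from eIF2 alpha, at 321 FPKM in the D16 library and 81.6 FPKM in the control library. Its ratio was 3.93 (3.81 to 4.05). PPP1R15B, the constitutive counterpart, was at 18.8 FPKM in the D16 library and 13.7 FPKM in the control library, a ratio of 1.37 (1.29 to 1.47). IMPACT, which restrains the amino acid sensor kinase EIF2AK4, was at 1.37 FPKM in the D16 library and 3.71 FPKM in the control library, a ratio of 0.368 (0.302 to 0.446).

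The 4 kinases that phosphorylate eIF2 alpha were within 1.5-fold on the log2 scale. EIF2AK3, the endoplasmic reticulum sensor, was at 5.33 FPKM in the D16 library and 3.52 FPKM in the control library, a ratio of 1.51 (1.33 to 1.71). EIF2AK1, the heme sensor, was at 35.5 FPKM in the D16 library and 28.1 FPKM in the control library. EIF2AK4 was at 9.92 FPKM in the D16 library against 8.17 FPKM in the control library. EIF2AK2, the double-stranded RNA sensor, was nearly level, at 8.12 FPKM in the D16 library and 8.21 FPKM in the control library. Of the proteins that sequester eIF4E, EIF4EBP1 was at 65.2 FPKM in the D16 library and 82.5 FPKM in the control library, a ratio of 0.790 (0.733 to 0.852). EIF4EBP2 was at 14.2 FPKM in the D16 library against 12.2 FPKM in the control library, and EIF4EBP3 was under 1 FPKM.

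Of 7 measured enzymes that make the special residues of eIF5A and eEF2, 3 were at least 1.5-fold higher in the D16 library and 4 were within 1.5-fold. That is 42.9% of a short list, against 13.2% of all measured genes and 8.93% over all the lists. DPH1, DPH5 and DPH7, of the diphthamide pathway, were within, with ratios of 0.948, 1.27 and 1.18. DOHH, which completes hypusine on eIF5A, was at 9.04 FPKM in the D16 library and 3.87 FPKM in the control library, a ratio of 2.34 (1.95 to 2.80). DPH3 and DPH2, which act in making diphthamide on eEF2, had ratios of 2.12 (1.91 to 2.35) and 1.85 (1.61 to 2.11). DPH3 was at 12.1 FPKM in the D16 library and 5.72 FPKM in the control library, and DPH2 at 9.68 FPKM in the D16 library and 5.24 FPKM in the control library. DHPS, the enzyme of the first hypusine step, was at 4.41 FPKM in the D16 library and 6.23 FPKM in the control library, a ratio of 0.708 alone and of 0.984 when summed with the overlapping same-strand model AC010422. ABCF1, an ATP-binding protein that associates with eIF2, was at 57.6 FPKM in the D16 library and 35.8 FPKM in the control library, a ratio of 1.61 (1.54 to 1.68). The 9 mitochondrial translation factors were all within 1.5-fold on the log2 scale with 1 FPKM added, with a median of 0.25. TSFM, the lowest of them, was at 2.57 FPKM in the D16 library and 4.13 FPKM in the control library. Its ratio was 0.622 (0.512 to 0.750), past 1.5-fold, though its log2 difference on that scale was -0.52.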

How the data were processed

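RNA-seq of 1 D16-treated and 1 control culture of MDA-MB-231 cells was analysed from the authors' gene table. Its columns hold FPKM made by the authors, by the names in the file headers, where 0.0001 stands for absent genes and was set to 0. It also holds the authors' estimated counts, which are whole, so rounding altered none; the step that made them was not stated. In the control library 473 genes had 3 counts, 1308 had 4 and 254 had 5, so that low values favour multiples of 4, and 4 counts were treated as 1 read pair. Over 13018 genes with 100 or more counts in both libraries, count and FPKM ratios matched within 1% for 98.4% after a common factor of 0.962.

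Per the submitters' processing notes, cutadapt 1.9, HISAT2 2.0.4 and StringTie 1.3.4d were used. The build of the genome was not stated in the sources used here. All 63 members were found in GENCODE release 29, 19 with the same ends and 63 with both ends within 50000 bases. Per the labels' protocols the libraries mark strand, and the strand setting of the counting is not stated. Of the 59 measured members, 3 overlap an expressed model on the same strand and 19 on the opposite strand. The authors' list of top genes gave names only, and its 8 columns of values per sample were left out.

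Members were kept at a mean of 1 FPKM or more. Intervals are exact Clopper-Pearson bounds, at 95%, of the D16 share of read pairs, turned into a ratio. Alternatives were pseudocounts of 0.1 and 5 FPKM, no filter or a mean of 5 FPKM, 3 other scalings, leaving out overlapping members and summing counts over overlapping models. The EEF1G sum was set together with the choice of members. The member counts under summing, and the sums over gene copies and over SENP3, were added after the values were seen. Named members were those at least 1.5-fold apart, the highest, lowest and most abundant of each group, and 10 listed core factors; the other members given with values, and the genes of the SENP3 and TUT1 loci, were chosen after their values were seen. The members and lists were chosen with earlier results of these data known. The calculation was tested on simulated counts. Python 3.11.15, pandas 2.3.3, numpy 2.4.6, scipy 1.17.1, matplotlib 3.10.9, R 4.3.3 and edgeR 4.0.16 (TMM factors only) were used.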

Additional observations from a re-analysis of the deposited data

How the results depend on the processing

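With a pseudocount of 0.1 FPKM, 2 members were at least 1.5-fold lower in D16. With equal sums of FPKM, 11 were at least 1.5-fold and 4 at least 2-fold higher, against 21.4% and 5.75% of all measured genes. The median log2 difference of members was then 0.31. After centring, 4 were 1.5-fold higher and 2 lower, against 8.31% and 15.6% of all measured genes. The median of members was then -0.017, the reverse of its direction as deposited. With TMM scaling 2 were 1.5-fold lower, against 13.96% of all measured genes. With a pseudocount of 5 FPKM 5 were 1.5-fold higher, and with no filter or a mean of 5 FPKM the counts were 7 and 1 at 1.5-fold and 2 and 1 at 2-fold, as reported. With overlapping members left out, or with counts summed over overlapping same-strand models, 0 were lower at 1.5-fold or at 2-fold. Calls from summed FPKM, which would give the EEF1G locus a lower ratio than summed counts, were not made. The EEF1G locus had a ratio of 0.113 for EEF1G alone, 15.0 for AP002990 alone, 0.892 for the sum with equal sums of FPKM, 0.710 after centring and 0.775 with TMM. Beyond the change in construction that each alternative makes, the cause was not tested. Of single-member ratios, 50 of 59 left their counting interval with equal sums, 49 of 59 after centring and 1 of 59 with TMM. The member counts under summing and the other scalings of the EEF1G sum were added after seeing the data. No paired analysis was possible because each group has 1 library, and for the same reason no library could be left out. The antisense partners of 19 members and the unstated strand setting limit their values, and EEF1AKMT1, with 189 counts in the D16 library and 208 in the control library, has an interval of 0.573 to 1.31.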

Other observations

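Pseudogenes of the factors were left out by the naming rule, and 22 of 133 such models had a mean of at least 1 FPKM. Their ratios of D16 to control ran from 0.704 to 1.41. Of 8 measured pseudogenes of EEF1A1, 7 had a ratio below 1, as had EEF1A1 itself, while 56.9% of all measured genes had a ratio above 1. The interval of EEF1A1P11, 1 of the 7, includes 1 (0.751 to 1.17). Reads may be exchanged between these copies and EEF1A1, so the 7 are not separate observations. EEF1A1P5 was the most abundant, with 526 FPKM in the D16 library and 656 FPKM in the control library, and 14.9% of the 150-base windows of an EEF1A1 transcript also occur in it. EIF1AXP1 had 29.5 FPKM in the D16 library and 20.9 FPKM in the control library, a ratio of 1.41 (1.17 to 1.71). EIF4EP2, a processed copy of the cap-binding protein gene, had 22.3 FPKM in the D16 library and 19.3 FPKM in the control library. EIF4E had 4.59 FPKM in D16 and 3.70 FPKM in control, from 5682 counts in D16 and 4408 in control. FPKM is scaled to transcript length, and the EIF4E transcript examined has 11523 bases. The FPKM values therefore do not rank the copy and its parent by reads. How reads were divided between such copies and their parents was not tested.

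SNORA67, a small nucleolar RNA inside EIF4A1, had 223 counts in the D16 library and 1 count in the control library, or 18.5 FPKM in D16 and 0.0623 FPKM in control. The control count is below what 1 read pair gives. The small nucleolar RNAs inside EIF4A2 had few counts in both libraries, 86 in D16 and 54 in control for SNORA4 and 32 in D16 and 45 in control for SNORA63B, and the intervals of their ratios include 1.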
